A study of Rattus norvegicus with 12 samples.

Results

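A set of 4 genes tied to the PERK branch of the unfolded protein response were followed in rat oligodendrocyte precursor cells: Atf4 (ENSRNOG00000017801), Atf3 (ENSRNOG00000003745), Ppp1r15a, also called Gadd34 (ENSRNOG00000020938), and Asns (ENSRNOG00000007546). They were chosen by gene name and Ensembl ID, with earlier results of these data known. The shares of all genes given beside their calls are therefore a description. All 4 are among the 32402 genes of the expression table. The pairing of these 4 names with their IDs came with the choice of genes, since the expression table itself holds IDs alone. All 4 passed the filter for testing, an average of 1 FPKM or more across the 12 libraries, which 12056 genes passed. FPKM, fragments scaled by gene length and library size, is a level per unit of gene length. Levels of different genes are set side by side on this scale, as an approximate comparison, since how shared fragments were counted is not stated.

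The cells were precursors of myelinating oligodendrocytes, isolated from spinal cords of adult rats, kept frozen and cultured up to passage 6. Control cells received 0 µM tunicamycin and treated cells 5 µM, each for 2 or 8 h, with 3 libraries in each of the 4 groups and 3 independent experiments in all. Tunicamycin blocks N-linked glycosylation in the endoplasmic reticulum, so that proteins misfold there. No genetic change is stated for any group. The label of the cells could not be checked against lineage markers, because the other IDs of the table carry no names.

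PERK is a kinase of the endoplasmic reticulum membrane that phosphorylates the translation factor eIF2α when unfolded protein accumulates. Protein synthesis then falls in general, while the mRNA of the transcription factor ATF4 is translated more, and ATF4 raises genes for amino acid supply, redox balance and further stress factors. Part of this output feeds back: GADD34, the product of Ppp1r15a, brings a phosphatase to eIF2α and lets translation resume. Oligodendrocytes load their secretory pathway heavily when they make myelin, and the PERK branch is known as a modifier of their survival in disease models.

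The RefSeq table of sequences before gene starts (build GRCr8) held 3 of the 4 genes. The 250 bases before each start are shown because all 3 genes were called higher at 8 h. ATF and CREB family proteins are known to bind the cyclic AMP response element. Capitals mark the full element TGACGTCA and its shortened core TGACG on either strand, and the full element holds the core on both strands. The Ppp1r15a stretch lies at chr1:105139597-105139846, minus strand, that of Atf4 at chr7:113684431-113684680, plus strand, and that of Asns at chr4:36769416-36769665, minus strand, each printed 5′ to 3′ along its gene.
Ppp1r15a: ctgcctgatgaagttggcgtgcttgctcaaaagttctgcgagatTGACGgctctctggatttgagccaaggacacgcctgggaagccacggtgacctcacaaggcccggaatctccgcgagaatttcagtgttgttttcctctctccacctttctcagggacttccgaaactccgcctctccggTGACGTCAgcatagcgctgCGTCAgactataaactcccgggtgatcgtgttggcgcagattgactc
Atf4: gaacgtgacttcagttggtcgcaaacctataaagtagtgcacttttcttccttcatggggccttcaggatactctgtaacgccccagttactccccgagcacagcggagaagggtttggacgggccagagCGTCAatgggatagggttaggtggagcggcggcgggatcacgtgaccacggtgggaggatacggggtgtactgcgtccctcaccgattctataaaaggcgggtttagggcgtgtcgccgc
Asns: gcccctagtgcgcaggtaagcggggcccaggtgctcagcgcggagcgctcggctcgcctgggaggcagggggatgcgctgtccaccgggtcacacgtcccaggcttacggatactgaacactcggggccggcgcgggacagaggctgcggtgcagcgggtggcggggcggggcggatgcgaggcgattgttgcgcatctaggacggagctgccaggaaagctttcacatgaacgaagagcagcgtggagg

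The full element occurred 1 time, in Ppp1r15a, from base −66 to −59 before the start, and was found in 1.59% of 33469 such stretches of the rat genome. The core TGACG, present in 18.2% of all stretches, occurred 4 times in Ppp1r15a, of which 2 lie inside the full element, 1 time in Atf4 at −120 to −116, and not in Asns. A composite C/EBP-ATF motif, TGATGNAA on either strand, was in none of the 3 stretches and in 3.4% of all. The Asns start used by the table lies 555 bases inside the outermost annotated end of the gene, so another start may carry other sequence. These letters describe the genome, and no binding was measured. Any link between these motifs and the timing of the genes was not tested, and Atf3 had no stretch to compare.

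Libraries were of similar scale, with summed FPKM from 588250 to 764988 and median-ratio factors (the typical ratio of a library's genes to their mean over libraries) from 0.948 to 1.01. The number of fragments per library is unknown. Genes under 1 FPKM place the shallowest library at 70.5% of the deepest, in fragments per unit of FPKM. Replicate 2 of control at 8 h stood apart: it had the lowest summed FPKM, and 1004 genes exceeded the average of its group's other libraries 2-fold or more on the log2(FPKM + 1) scale, against 90 to 230 in the other 11 libraries. The fold changes at 8 h, the differences between the times and the correlations are therefore given without it as well. A level here is a share of the RNA in a culture, so more RNA per cell and more cells that make it cannot be told apart.

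**Figure D1:**
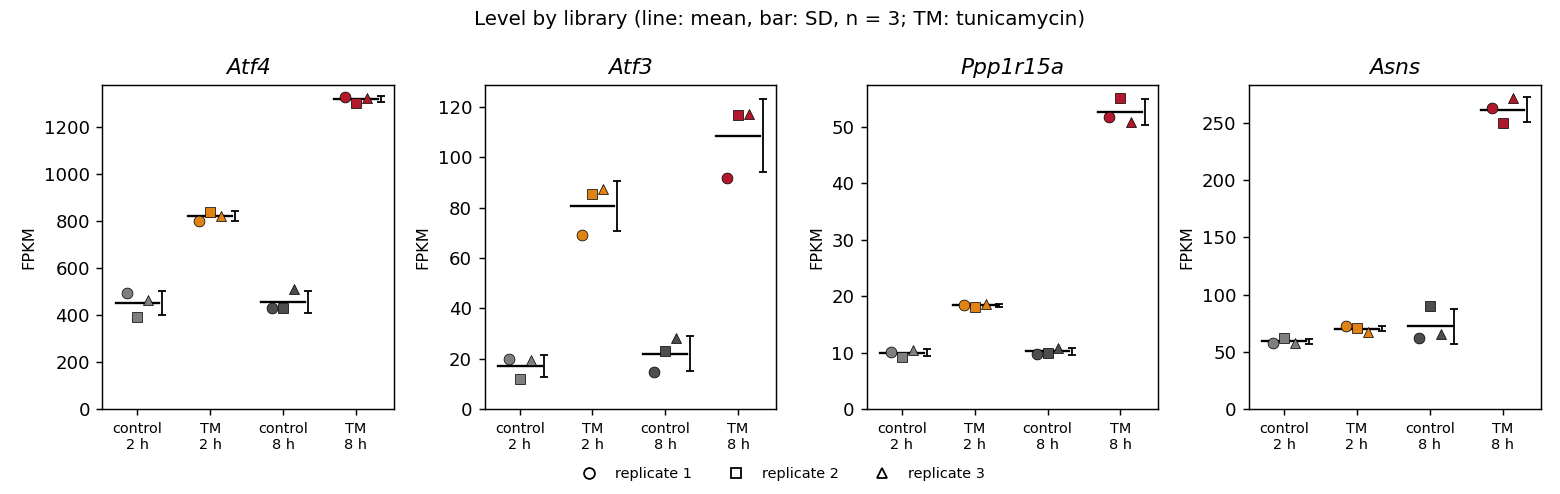
FPKM of Atf4, Atf3, Ppp1r15a and Asns (vertical axes, each from 0) in every library of the 4 groups (horizontal axes; TM is tunicamycin); lines are means, bars SD, n = 3, and symbols replicate numbers. Atf4, Atf3 and Ppp1r15a stand above control at both times, whereas Asns goes from 59.1 to 70.3 FPKM at 2 h and from 72.4 to 261 FPKM at 8 h.

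Atf4, Atf3 and Ppp1r15a rose within 2 h and all 4 were higher at 8 h. Atf3 had similar fold changes at both times, Atf4 and Ppp1r15a rose at 2 h and again by 8 h, and Asns was called only at 8 h. Fold changes were tested with limma on log2(FPKM + 1) over all 12 libraries, and a gene was called at a Benjamini-Hochberg adjusted p under 0.05 over the 12056 genes. At 2 h, 3 of the 4 were called higher, where 0.498% of all genes tested were. At 8 h, 4 of the 4 were called higher, against 17.8% of all genes. In both comparisons the 3 treated libraries lay above the 3 controls for each of the 4 genes, which held for 10.1% of all genes at 2 h and 21.5% at 8 h. The median log2 fold change over all genes was −0.01 at 2 h and −0.02 at 8 h.

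Atf4, the transcription factor at the centre of the branch, was already abundant in control cells. At 2 h the controls stood at 494, 394 and 463 FPKM and the treated libraries at 799, 841 and 821 FPKM. At 8 h the controls stood at 431, 430 and 510 FPKM and the treated libraries at 1330, 1304 and 1325 FPKM. No treated library came near a control: the lowest treated value was 1.62-fold the highest control at 2 h and 2.56-fold at 8 h. Mean Atf4 thus went from 450 ± 51.4 to 821 ± 21.1 FPKM at 2 h, 1.82-fold, and from 457 ± 46.2 to 1320 ± 13.7 FPKM at 8 h, 2.89-fold (SD, n = 3 each). On the log2 scale the change was 0.87 ± 0.10 at 2 h (SE; limma adjusted p = 0.00638) and 1.53 ± 0.10 at 8 h (SE; limma adjusted p = 2.99e-06).

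The spread of Atf4 relative to its mean was smaller under treatment at both times, as was that of Atf3 and Ppp1r15a. For Asns the coefficient of variation was 3.86% in control and 3.52% under treatment at 2 h, and 21.2% and 4.17% at 8 h. The 21.2% rests on replicate 2 of control at 8 h, at 90.0 FPKM, where the other controls stood at 62.1 and 65.1 FPKM. The Asns difference in spread at 8 h thus depends on that library. The share of all genes with a smaller spread under treatment was not computed. The coefficient of variation of Atf4 was 11.4% and 10.1% in the controls at 2 and 8 h, and 2.57% and 1.04% in the treated groups. The controls ran from 394 to 510 FPKM over both times. Among the 12056 genes, Atf4 ranked from 182 to 280 by FPKM in the 6 control libraries, from 108 to 114 at 2 h of tunicamycin and from 52 to 61 at 8 h. The ranks of the treated groups do not overlap with each other or with the controls, and the share of all genes with ranks apart in this way was not computed. Fitted on the 2 h libraries alone, the early rise of Atf4 was no longer called (limma adjusted p = 0.0632), at the same size of 0.87.

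Atf3, a stress-induced transcription factor known to be raised downstream of ATF4, was lower than Atf4 and Asns in control cells. It was raised by a similar factor at both times. At 2 h the controls stood at 19.9, 12.1 and 19.6 FPKM and the treated libraries at 69.1, 85.6 and 87.2 FPKM. At 8 h the controls stood at 14.8, 22.9 and 28.4 FPKM and the treated libraries at 91.8, 117 and 117 FPKM. Treated and control libraries were widely apart at both times, with the lowest treated value 3.47-fold the highest control at 2 h and 3.24-fold at 8 h. Mean Atf3 went from 17.2 ± 4.42 to 80.6 ± 10.04 FPKM at 2 h, 4.69-fold, and from 22.0 ± 6.82 to 109 ± 14.6 FPKM at 8 h, 4.93-fold (SD, n = 3 each). The log2 fold change was 2.19 ± 0.24 at 2 h (SE; limma adjusted p = 0.00461) and 2.29 ± 0.24 at 8 h (SE; limma adjusted p = 6.96e-05).

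By its point estimate Atf3 stood 35th among all genes in order of rise at 2 h, where Atf4 stood 287th and Ppp1r15a 296th. This order includes genes listed at 0 in some libraries, whereas none of the 4 genes was at 0 in any. Atf3 was also the most variable of the 4, with a coefficient of variation of 25.7% and 31.0% in the controls. Its fold between libraries of the same replicate number ran from 3.47 to 7.07 at 2 h and from 4.13 to 6.20 at 8 h, and both highest values had the lowest control of their time as denominator. With the 2 h libraries fitted alone, its early rise was of the same size and just missed the call (limma adjusted p = 0.0522).

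Ppp1r15a encodes GADD34, the regulatory subunit that directs protein phosphatase 1 to eIF2α. At 2 h the controls stood at 10.1, 9.30 and 10.5 FPKM and the treated libraries at 18.5, 18.1 and 18.6 FPKM. At 8 h the controls stood at 9.79, 10.004 and 10.9 FPKM and the treated libraries at 51.9, 55.2 and 50.8 FPKM. It was the least abundant of the 4 genes, with coefficients of variation from 1.52% to 6.20% over the 4 groups. Mean Ppp1r15a went from 9.97 ± 0.618 to 18.4 ± 0.279 FPKM at 2 h, 1.85-fold, and from 10.2 ± 0.585 to 52.6 ± 2.27 FPKM at 8 h, 5.14-fold (SD, n = 3 each). The log2 fold change was 0.82 ± 0.07 at 2 h (SE; limma adjusted p = 0.000555) and 2.26 ± 0.07 at 8 h (SE; limma adjusted p = 2.35e-08). The call at 2 h held with the 2 h libraries fitted alone (limma adjusted p = 0.0188).

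Asns, asparagine synthetase, makes asparagine from aspartate and glutamine and is a well known ATF4 target. At 2 h the controls stood at 57.8, 61.8 and 57.8 FPKM and the treated libraries at 72.2, 71.2 and 67.5 FPKM. The groups did not overlap, but the gap was small, with the lowest treated value 1.09-fold the highest control. The means were 59.1 ± 2.28 and 70.3 ± 2.48 FPKM (SD, n = 3 each), 1.19-fold, or 0.25 ± 0.12 on the log2 scale (SE; limma adjusted p = 0.763). The 95% interval of this difference, −0.03 to 0.52, holds no change as well as rises larger than the one seen. Replicate 2 of control at 8 h enters this comparison only through the spread. Without it the difference came much closer to the threshold but was not called (limma adjusted p = 0.0847).

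At 8 h the Asns controls stood at 62.1, 90.0 and 65.1 FPKM and the treated libraries at 263, 250 and 271 FPKM. The high control, 90.0 FPKM, is the replicate 2 that stood apart, and even it lay 2.77-fold below the lowest treated library. Mean Asns went from 72.4 ± 15.3 to 261 ± 10.9 FPKM, 3.61-fold (SD, n = 3 each). The log2 fold change was 1.86 ± 0.12 (SE; limma adjusted p = 2.88e-06), and 2.02 without that control library. Without the same library, the log2 fold changes at 8 h were 1.49 for Atf4, 2.34 for Atf3 and 2.24 for Ppp1r15a, and all 4 genes were called. In rank by FPKM, Asns lay at 1131 in the control library that stood apart and between 1872 and 2066 in the other controls. It lay between 1630 and 1812 at 2 h of tunicamycin and between 393 and 428 at 8 h.

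**Figure D2:**
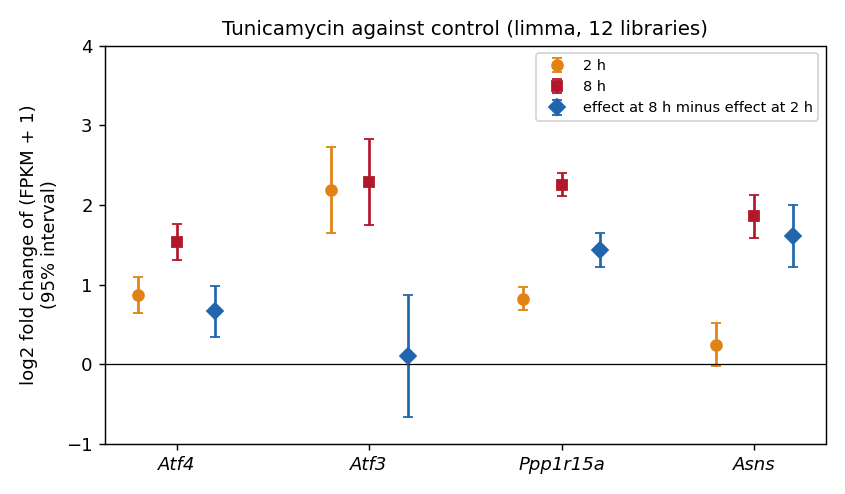
Log2 fold change of FPKM + 1, tunicamycin against control, for each gene at 2 h and at 8 h, and the difference of these effects (vertical axis; points are limma estimates and bars their 95% intervals). The difference is 0.66 for Atf4, 0.10 for Atf3, 1.43 for Ppp1r15a and 1.61 for Asns, and the intervals of Atf3 for the difference and of Asns at 2 h reach below 0.

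Whether the effect grew between the times was tested by the interaction in the same fit. It was called higher at 8 h for 3 of the 4 genes, against 7.47% of all genes tested. The difference of the log2 fold changes was 1.61 ± 0.17 for Asns (SE; limma adjusted p = 0.000249). It was 1.43 ± 0.09 for Ppp1r15a (SE; limma adjusted p = 1.29e-05). It was 0.66 ± 0.14 for Atf4 (SE; limma adjusted p = 0.0143). For Atf3 it was 0.10 ± 0.34 (SE; limma adjusted p = 0.907), with a 95% interval from −0.67 to 0.87, so neither growth nor decline of its effect is resolved. Without replicate 2 of control at 8 h these differences were 1.78 for Asns, 1.42 for Ppp1r15a, 0.62 for Atf4 and 0.15 for Atf3, with the same calls.

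Atf4 and Ppp1r15a were called higher at both times and by the interaction, as were 0.199% of all genes. Atf3 was called higher at both times without a called interaction. The share called higher at both times, 0.398% of all genes, includes the genes also called by the interaction. Asns belonged to the 7.26% of genes called at 8 h and by the interaction but not at 2 h. In FPKM, the mean rise at 2 h amounted to 73.3% of the rise at 8 h for Atf3, 42.9% for Atf4, 19.9% for Ppp1r15a and 5.91% for Asns. On the log2 scale of the tests, the change at 2 h was 95.7% of that at 8 h for Atf3, 56.8% for Atf4, 36.5% for Ppp1r15a and 13.2% for Asns. All 8 shares follow the same order of the genes. The first 4 are ratios of differences of group means, and none of the 8 carries an error of its own.

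**Figure D3:**
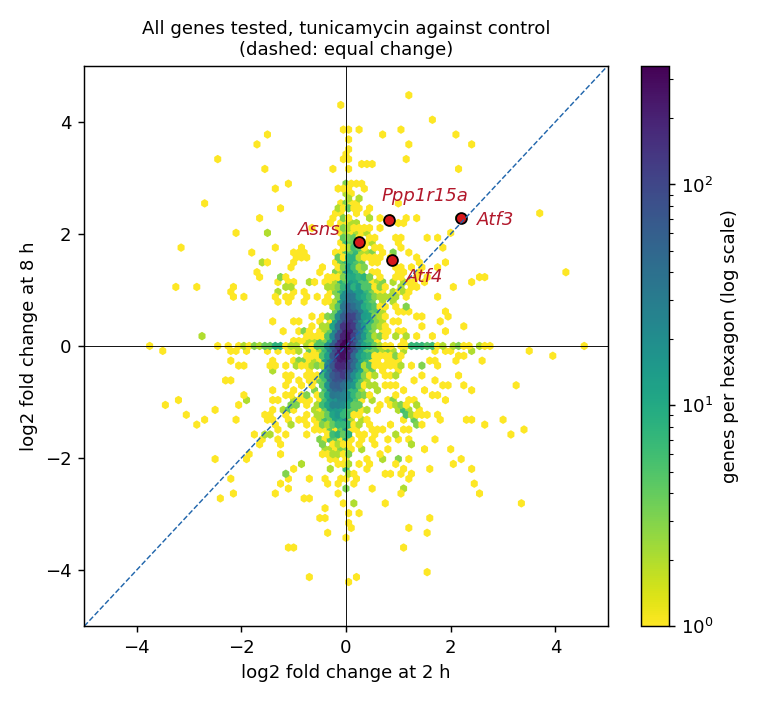
Log2 fold change of FPKM + 1 at 2 h (horizontal axis) and at 8 h (vertical axis) for the 12056 genes tested, binned into hexagons coloured by the number of genes on a log scale; 3 genes lie beyond the axis limits of 5, and the 2 times share no library. Atf3 lies on the dashed line of equal change at 2.19 and 2.29, Atf4 and Ppp1r15a lie above it, and Asns lies at 0.25 and 1.86.

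The treated libraries of both times were also compared with each other in the same fit, a comparison added after the data were seen. It gave 3 of the 4 genes as higher at 8 h, against 13.6% of all genes. Asns was 3.72-fold higher at 8 h than at 2 h of treatment (log2 difference 1.88 ± 0.12, SE; limma adjusted p = 3.44e-06). Ppp1r15a was 2.86-fold higher (1.47 ± 0.07, SE; limma adjusted p = 3.61e-07) and Atf4 1.61-fold higher (0.69 ± 0.10, SE; limma adjusted p = 0.000744). Atf3 was 1.35-fold higher without a call (0.42 ± 0.24, SE; limma adjusted p = 0.236). Its lowest library at 8 h was at 91.8 FPKM and its highest at 2 h at 87.2 FPKM. The share of all genes with treated groups apart in this way was not computed, so this gap adds nothing to the test.

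Time in culture without the drug moved none of the 4 genes past the threshold, and 0.0249% of all genes were called in either direction. The log2 difference, control at 8 h minus control at 2 h, was 0.02 for Atf4, 0.03 for Ppp1r15a, 0.27 for Asns and 0.32 for Atf3 (limma adjusted p = 0.926, 0.822, 0.66 and 0.66). The 95% intervals were narrow for Atf4, −0.20 to 0.25, and Ppp1r15a, −0.11 to 0.18, and wider for Asns, −0.01 to 0.54, and Atf3, −0.22 to 0.87. Leaving out 1 library at a time moved the difference of Atf3 between 0.10 and 0.57 and that of Asns between 0.10 and 0.37, none called. The lowest Asns value came without replicate 2 of control at 8 h, and the lowest Atf3 value without replicate 2 of control at 2 h.

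The order of the 4 levels changed with treatment. In both control groups Atf4 was highest, followed by Asns, Atf3 and Ppp1r15a, and no library of 1 gene overlapped with those of the next gene of the same group. The closest neighbours were Atf3 and Ppp1r15a in control at 2 h, where the lowest Atf3 library was at 12.1 FPKM and the highest Ppp1r15a library at 10.5 FPKM. At 2 h of tunicamycin Atf3 reached the level of Asns: the libraries of both genes overlapped, at 69.1 to 87.2 and 67.5 to 72.2 FPKM, and the ratio of Atf3 to Asns was 0.956, 1.20 and 1.29 in the 3 libraries. At 8 h of tunicamycin Asns was again above Atf3, with ratios of 0.349, 0.468 and 0.432, and the order of the controls was restored.

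**Figure D4:**
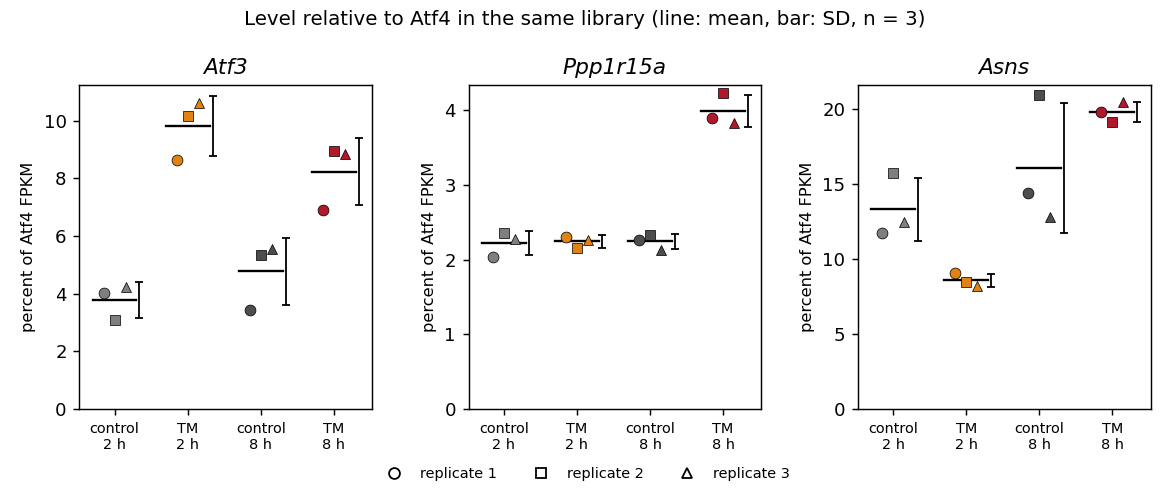
FPKM of Atf3, Ppp1r15a and Asns as a percent of the FPKM of Atf4 in the same library (vertical axes, from 0) in the 4 groups (horizontal axes; TM is tunicamycin); lines are means, bars SD, n = 3. Ppp1r15a stays between 2.04% and 2.36% in 9 libraries and stands at 3.83% to 4.23% at 8 h of tunicamycin, whereas Asns dips to 8.57% at 2 h of tunicamycin.

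Set against Atf4 in the same library, the other 3 genes followed different courses. Ppp1r15a held 2.23% ± 0.165 of the Atf4 level in control at 2 h, 2.24% ± 0.0833 at 2 h of tunicamycin and 2.24% ± 0.0997 in control at 8 h (SD, n = 3 each). Both mRNAs had thus moved by nearly the same factor at 2 h, and the ratio stood at 3.99% ± 0.212 at 8 h of tunicamycin, with no overlap with the other groups. Atf3 went from 3.78% ± 0.618 to 9.81% ± 1.04 of Atf4 at 2 h and from 4.77% ± 1.17 to 8.23% ± 1.15 at 8 h (SD, n = 3 each), with treated above control in every library of a time. Asns went the other way at first, from 13.3% ± 2.11 to 8.57% ± 0.420 at 2 h, where Atf4 rose and Asns was not called. At 8 h its share was 16.0% ± 4.34 in control and 19.8% ± 0.661 with tunicamycin (SD, n = 3 each), and these groups overlap through the control library that stood apart, at 21.0%. No test was made of these ratios. How many of all genes have ratios to Atf4 that set the groups apart in these ways was not computed.

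Over the 12 libraries, log2(FPKM + 1) of Atf4 had a Pearson correlation of 0.97 with Ppp1r15a, 0.96 with Atf3 and 0.84 with Asns. The points share the 4 groups, so the values describe the groups more than the libraries. Without the 3 libraries at 8 h of tunicamycin, the same correlations over 9 libraries were 0.99, 0.98 and 0.21. The low value of Asns rests on 1 library, replicate 2 of control at 8 h. Its correlations with the other 3 genes ran from 0.21 to 0.36 over the 9 libraries and from 0.83 to 0.86 over the 8 left without that control. Over 11 libraries without that control alone, Atf4 had correlations of 0.97 with Ppp1r15a, 0.96 with Atf3 and 0.88 with Asns.

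Of the genes not listed at 0 in any library, the one whose pattern was most like that of Atf4 was ENSRNOG00000013703, with a Pearson correlation of 0.993 over the 12 libraries. Its controls averaged 13.8 ± 0.534 FPKM and its treated libraries 22.0 ± 0.273 FPKM at 2 h, followed by 13.3 ± 1.10 and 33.8 ± 0.307 FPKM at 8 h (SD, n = 3 each). The one most like Atf3 was ENSRNOG00000036666, with a correlation of 0.979. It stood at 15.3 ± 1.09 and 21.8 ± 0.824 FPKM at 2 h and at 16.0 ± 1.21 and 22.4 ± 0.854 FPKM at 8 h (SD, n = 3 each), a rise that, as in Atf3, was of similar size at both times but much smaller. Both were picked from 11216 genes for their likeness, so these values are a description. The list of PERK branch genes made for this work, 56 symbols, has no result beyond the 4 genes, since 0 of the 32402 IDs could be matched to a symbol.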

How the data were processed

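RNA was profiled in 12 libraries, 3 for each treatment and time, with a stranded total RNA kit after removal of ribosomal RNA, per the labels' protocols. The authors deposited FPKM values per Ensembl gene ID for each library. The build was rn6, and Cuffnorm, Cuffdiff 2.1.1, Cufflinks 2.2.1, TopHat2 2.0.4 and FastQC 0.10.1 were used in roles not stated, per the submitters' processing notes. The sources used here do not say how fragments shared by similar or overlapping genes were counted. No fragment counts were used, so the counting error of low levels is unknown. Columns were matched to samples by the treatment, time and number in their names.

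Values of genes averaging 1 FPKM or more were transformed to log2(FPKM + 1), a scale that understates changes of low genes, and group means were fitted with limma 3.58.1 in R 4.3.3 (trend on mean expression, 8 residual and 2.01 prior degrees of freedom). The fit was first checked on artificial data with known changes. Multiple testing was handled by Benjamini-Hochberg adjustment over the 12056 genes. The genes and lists were chosen with earlier results of these data known. Genes to be named were the 4 chosen genes, further PERK branch genes where IDs could be matched to symbols (none could), and the 1 gene most correlated with Atf4 and with Atf3. The labels give 3 independent experiments without saying which library belongs to which. Alternatives covered pseudocounts of 0.1 and 5, filters, scaling, fewer libraries in the fit, a replicate block, array weights and leaving out each library.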

Additional observations from a re-analysis of the deposited data

Results flagged for a closer look

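For 3 of the 4 genes, tunicamycin acted differently at 2 and 8 h by the test of the difference itself (limma interaction). Their effect was called higher at 8 h, as it was for 7.47% of all genes tested. The log2 fold change at 8 h minus that at 2 h was 0.66 for Atf4, 1.61 for Asns and 1.43 for Ppp1r15a. In each case, and for Atf3 as well, the 3 treated libraries lay above the 3 controls at both times. That held for 10.1% of all genes at 2 h and 21.5% at 8 h, and the share for both times together was not computed. For Atf4 the limma adjusted p ranged from 0.00736 to 0.0409 over the 20 alternatives and remained under 0.05 in all of them.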

How the results depend on the processing

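All 4 genes kept their calls at 8 h, Ppp1r15a its call at 2 h, and Atf4, Asns and Ppp1r15a their calls of the difference between the times, under every alternative run. With only the 2 h libraries fitted, 30 genes were called at 2 h in place of 67, and Atf4 (0.87) and Atf3 (2.19) lost their calls at 2 h (limma adjusted p = 0.0632 and 0.0522), with fewer degrees of freedom; the 8 h libraries alone gave 2591 in place of 4016. Quantile normalization gave 40 genes at 2 h and turned the control difference of Ppp1r15a to −0.032. A pseudocount of 5 gave 1 gene between the controls in place of 3. Array weights, whose estimation stopped before its tolerance and gave replicate 3 of tunicamycin at 8 h a weight of 103, gave 1428 genes at 2 h (788 higher), 2944 in place of 1595 for the difference between the times, 5 between the controls and 9222 in place of 3450 between the treated groups. They also called Asns at 2 h (0.19, limma adjusted p = 0.0401) and Atf3 between the treated groups (0.47, limma adjusted p = 0.000657), and turned the Atf3 difference between the times to −0.29, not called.

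Leaving out 1 library at a time gave 18 to 35 genes at 2 h without any 1 of the 6 libraries of that time, 29 without replicate 3 of tunicamycin at 8 h and 114 without replicate 2 of control at 8 h. It gave 1069 to 2657 for the difference between the times, the most without that control, and 2 to 9 between the controls, with 6, 6 and 9 without control replicates 1, 2 and 3 at 8 h. Differences that were not called changed sign: that of Atf3 between the times ran from −0.15 to 0.32, and between the controls Atf4 ran from −0.070 to 0.094 and Ppp1r15a from −0.011 to 0.070. The replicate number as a block gave 32 genes at 2 h and changed no call of the 4 genes; deviations of same-numbered libraries correlated from −0.18 to 0.13, against −0.28 to 0.28 for other numbers, so the numbers are not shown to pair them. For results that moved with no value given beside them, the cause was not tested. Fragment numbers are unknown, so the counting error of the 4 genes cannot be compared.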
